A study of Rattus norvegicus with 6 samples.

Results

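The ABC transporters of rat brain mural cells were examined. These are the genes whose symbol starts with Abca to Abcg followed by a digit, apart from Abcc8 and Abcc9, which encode the sulfonylurea receptor subunits of a potassium channel. Of the 37 symbols of this form, 35 were therefore kept, out of 14607 genes listed for the series. Messenger RNA had been sequenced from 6 samples of brain cortex of male Sprague-Dawley rats aged 4 to 5 weeks, each sample pooled from several rats. The labels name no genetic change and no treatment in either group, and their titles tie each VSMC sample by letters (DN, DL or DK) to a mcPC sample. The 3 samples of vascular smooth muscle cells (VSMCs) came from arterioles kept back by a filter. Cells carrying CD31 or CD11b were first removed from these, and the cells binding a Griffonia simplicifolia lectin were then collected. The 3 samples of mid-capillary pericytes (mcPCs) were what was left of the filtrate once cells carrying CD31, CD11b, GLAST or O4 had been removed, so they were never selected by a marker of their own. The comparison asks how capillary pericytes differ from arteriolar smooth muscle cells.

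Every value below is the authors' mean over the samples of a cell type. Values of single samples were not analysed here, so no SD between samples can be given and no difference was tested. Levels are given in TPM, the transcript abundance corrected for length and scaled to a fixed total, which allows genes to be compared within a cell type. Differences are given as log2 ratios of mean normalized counts, mcPCs over VSMCs, with a 95% interval that covers counting error only and would be wider with the spread between samples. The reads assigned to genes came to 62.0 M (M, 1e6) in each VSMC sample and 48.0 M in each mcPC sample on average. The markers of both cell types were looked at first. All 12 smooth muscle markers were at least 2-fold higher in VSMCs, by a median log2 ratio of -7.31, and 10 of 13 pericyte markers were 2-fold or more higher in mcPCs, whereas Notch3 was 2-fold or more higher in VSMCs. Markers of other cells were also higher in mcPCs. Beside such counts, 22% of all listed genes were 2-fold or more higher in mcPCs and 13.9% in VSMCs. Of all listed genes under 0.8 TPM in VSMCs, 67.4% were 2-fold or more higher in mcPCs. A gene was listed only if it had a read in every sample, so no listed marker can be at 0, and markers without a row were not analysed here. Of 26 listed erythrocyte genes 25 were at least 2-fold higher there, and the 26 together held 66.9% of the mcPC TPM and 0.882% of the VSMC TPM. TPM of any other gene in mcPCs is lowered by that share. The globin genes Hba-a1 and Hbb had 7.53e+06 and 4.08e+06 reads per mcPC sample, against 53900 and 26990 per VSMC sample. The mcPC reads left for other genes were thus fewer than the total above. Leaving the erythrocyte genes out of the total multiplies TPM by 1.01 in VSMCs and by 3.03 in mcPCs. Summed TPM of the marker lists below is given without that step. The log2 ratio of mean TPM had a median of -1.72 over all listed genes, and that of normalized counts one of 0.01. Since whole populations were sequenced, fewer cells of one type and less RNA per cell cannot be told apart.

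ABC proteins share a nucleotide-binding domain that hydrolyses ATP. Most of them use it to move lipids, sterols, drugs, conjugates, metal complexes or peptides across a membrane, out of the cell or between compartments. At the blood-brain barrier they are best known for P-glycoprotein and its partners, which return drugs from endothelial cells to the blood, and in glia for the transfer of cholesterol to apolipoproteins. The ABCE and ABCF proteins have no membrane domain and act on ribosomes.

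Of the 35 genes, 15 were 2-fold or more higher in mcPCs and 2 in VSMCs, and 18 lay within 2-fold. The 15 made up 42.9% of the family, against 22% of all listed genes called in that direction, and the 2 made up 5.71%, against 13.9%. At 4-fold or more, 8 were higher in mcPCs (12.4% of all listed genes) and 2 in VSMCs (5.72%). The median log2 ratio of the family was 0.26 and that of all listed genes 0.01. The extremes were Abca4 at 7.08 and Abca5 at -5.74. Counting intervals left out 0 for 33 of the 35, the exceptions being Abca2 and Abcc5. For 14 of the 15 genes higher in mcPCs and both genes higher in VSMCs the interval also lay beyond 2-fold, and for Abcc3 it did not.

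These counts varied with the level of the gene in VSMCs. All 6 genes under 0.8 TPM in VSMCs (Abca4, Abca8, Abca8a, Abcb1a, Abcc2 and Abcc4) were 2-fold or more higher in mcPCs, but so were 67.4% of all listed genes at that level. The paper dropped every gene under 0.8 TPM in VSMCs from its final dataset, so these 6 genes are not in it. That filter was meant to take out RNA of contaminating cells, since endothelial markers stood higher in the mcPC samples. The part of such RNA in the ratios of these 6 genes was not tested. Between 0.8 and 10 TPM, 9 of 15 ABC genes were higher in mcPCs, against 26.1% of all listed genes. None of the 14 genes at 10 TPM or more was 2-fold higher in mcPCs, where 6.33% of all listed genes were, and 2 of the 14 were 2-fold higher in VSMCs, where 18.5% were. Since the VSMC level is also the denominator of the ratio, genes low in VSMCs tend to higher ratios by construction, and only the shares of all listed genes at the same level can be set beside these counts.

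**Figure D1:**
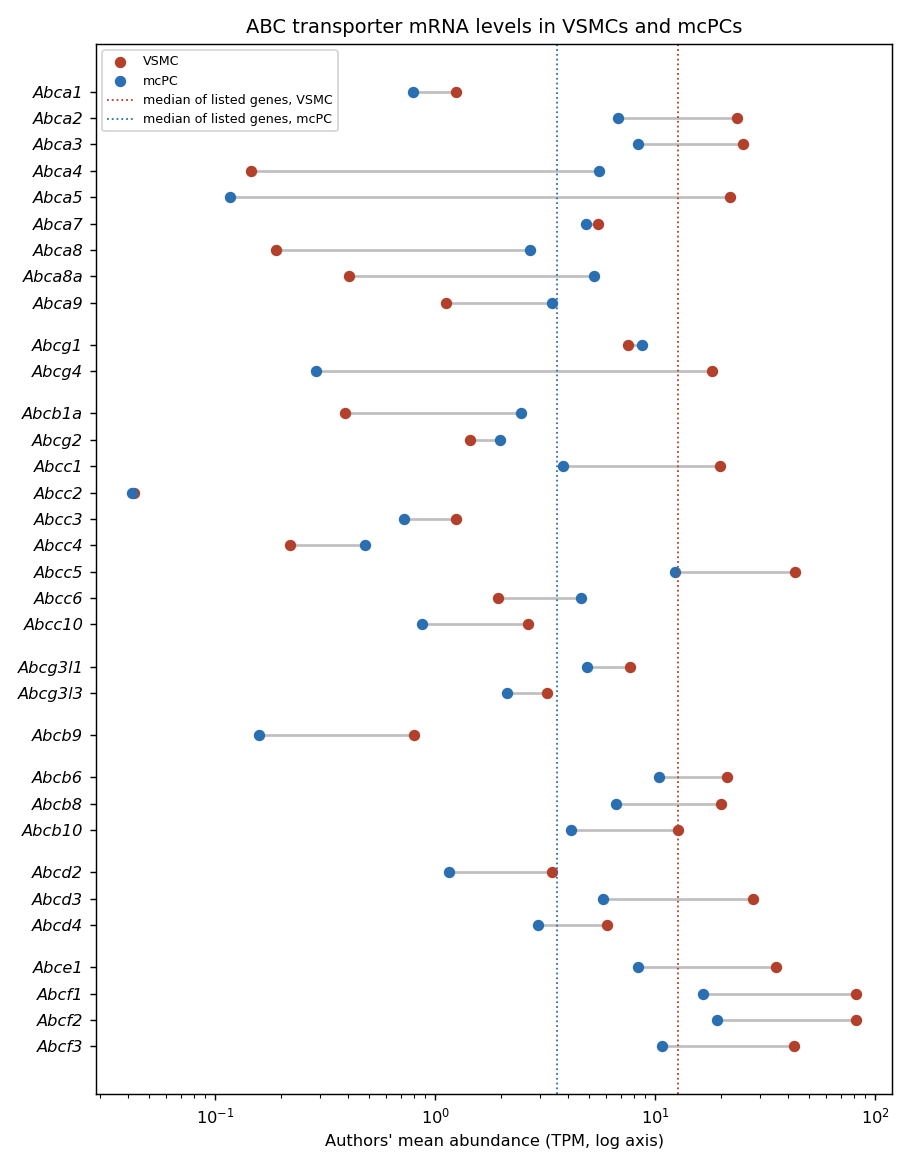
Authors' mean TPM of 33 of the 35 ABC transporters in VSMCs (red) and mcPCs (blue) on a log axis, grouped by role, with dotted lines at the median of all listed genes, 12.7 TPM in VSMCs against 3.59 TPM in mcPCs. Abca4, Abca8 and Abca8a stand far to the right in mcPCs, Abca5 and Abcg4 in VSMCs, and most other genes lie lower in mcPCs on this scale, as do 86.3% of all listed genes.

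**Figure D2:**
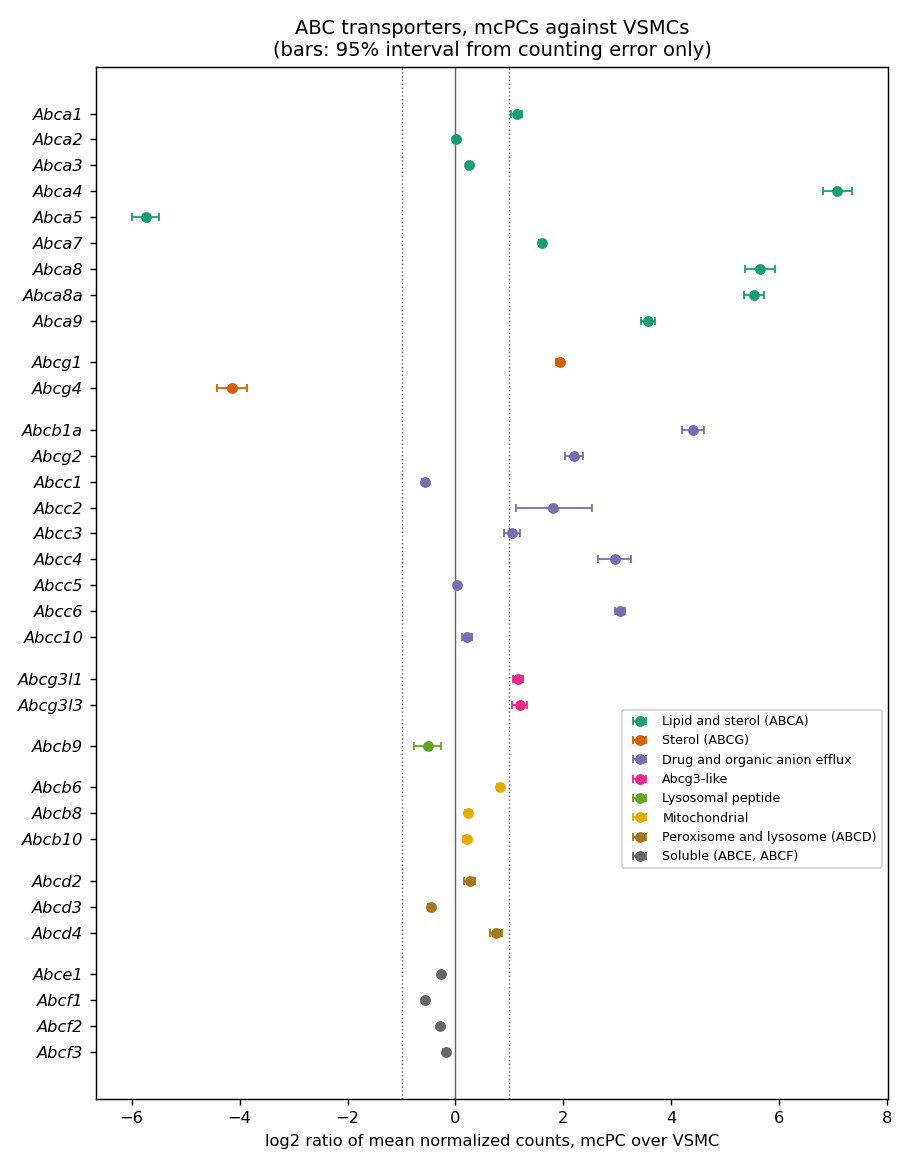
Log2 ratio of mean normalized counts, mcPCs over VSMCs, for 33 of the 35 ABC transporters, coloured by role, with bars for the 95% interval from counting error only and dotted lines at 2-fold. The ratios run from -5.74 for Abca5 to 7.08 for Abca4, and no mitochondrial, ABCD or soluble gene shown passes 2-fold.

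The ABCA proteins, large single-chain transporters of phospholipids, sterols and related lipids, showed the widest range. Of 9 genes, 6 were 2-fold or more higher in mcPCs, 1 in VSMCs and 2 were within 2-fold, with a median log2 ratio of 1.60. Abca4 (ENSRNOG00000012892), which clears retinal-lipid conjugates from photoreceptor discs, was at 0.146 TPM in VSMCs against 5.53 TPM in mcPCs. This corresponds to 39.3 and 2877 reads per sample and to 135-fold more normalized counts in mcPCs (log2 ratio 7.08, counting interval 6.81 to 7.35). In VSMCs 5.29% of listed genes were lower than Abca4, in mcPCs 61.4%.

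Abca8, Abca8a and Abca9, close relatives in a cluster of ABCA genes, were all higher in mcPCs. Abca8 was at 0.189 TPM in VSMCs against 2.68 TPM in mcPCs, a log2 ratio of 5.64 (5.36 to 5.93). Abca8a went from 0.407 to 5.29 TPM, with a ratio of 5.53 (5.35 to 5.71). For Abca9 the levels were 1.12 and 3.40 TPM and the ratio was 3.57 (3.44 to 3.70). In RefSeq's gene order on GRCr8 the 3 genes follow each other, and Abca6, not analysed here, separates them from Abca5. The ratio therefore changed sign within the cluster. Reads of these 3 genes were not whole numbers in mcPCs, as for 15 of the 35 genes in at least one cell type, Abcb1a, Abcc1, Abcd3, Abce1 and Abcf2 among them. Such reads had been divided between genes by the estimation, with which genes is not known, and these values are uncertain to that extent. Fibroblasts of brain vessels are known to carry genes of this cluster. Of 11 fibroblast and meningeal markers 9 were listed, and 6 of these were 2-fold or more higher in mcPCs, by 7.26 for Slc6a13, 4.32 for Igfbp2 and 1.54 for Dcn, and 1, Foxc1, was higher in VSMCs. Col1a1 and Col15a1 had negative ratios within 2-fold, -0.13 and -0.96. Igfbp2 and Pdgfra were under 0.8 TPM in VSMCs, where 67.4% of all listed genes were called towards mcPCs. The summed level of the list was 317 TPM in VSMCs against 205 TPM in mcPCs, where the erythrocyte genes lower TPM. Foxc1 and Col1a1 held 173 and 114 TPM of it in VSMCs, and Slc6a13 132 TPM in mcPCs. The part of these markers in the ratios of Abca8, Abca8a and Abca9 was not tested.

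Abca5 (ENSRNOG00000004378), a lysosomal protein linked to sterol handling, went the other way. It stood at 21.96 TPM and 4477 reads per sample in VSMCs and at 0.117 TPM and 44.3 reads in mcPCs, 53.4-fold fewer normalized counts (log2 ratio -5.74, counting interval -6.00 to -5.49). Only Abcc2 was lower among the ABC genes of mcPCs. Of the 12 smooth muscle markers, Des was the nearest to it at -5.33.

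The other ABCA genes differed less. Abca1, which loads cholesterol and phospholipid onto apolipoproteins, had a ratio of 1.13 (1.04 to 1.23) and Abca7, a related phospholipid exporter, one of 1.60 (1.55 to 1.66). Both were below VSMC levels on the TPM scale, at 1.24 and 0.793 TPM for Abca1 and 5.52 and 4.83 TPM for Abca7 in VSMCs and mcPCs. Abca2, an endolysosomal lipid transporter abundant in brain, had almost the same normalized counts in each, 5333 and 5347. Abca3, which fills surfactant granules of the lung with phospholipid, differed by 0.25 (0.21 to 0.29). With 23.5 and 25.2 TPM these were the most abundant ABCA genes of VSMCs, and at 6.75 and 8.32 TPM also of mcPCs.

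To show the sequence at both ends of this range, the 250 bases before the RefSeq start site of the 2 ABCA genes furthest towards mcPCs and of Abca5 are given below, 5′ to 3′ on the gene's strand, from GRCr8, a later assembly than the Rnor_6.0 transcripts behind the counts. Capitals mark matches, on either strand, to the letters searched: the CArG box of serum response factor, GGGCGG (bound by Sp1), TATAAA (a core promoter box), CACGTG (an E-box) and AGGTCA (a nuclear receptor half-site, which also occurs inside longer receptor elements). The window of Abca4 is chr2:212849235-212849484 (+), that of Abca8 chr10:95476846-95477095 (-) and that of Abca5 chr10:95808425-95808674 (-).
Abca4: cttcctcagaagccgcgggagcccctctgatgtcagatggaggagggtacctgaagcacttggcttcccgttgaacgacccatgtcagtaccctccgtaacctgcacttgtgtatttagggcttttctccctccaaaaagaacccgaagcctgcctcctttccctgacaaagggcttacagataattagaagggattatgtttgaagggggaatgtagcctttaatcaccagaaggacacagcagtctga
Abca8: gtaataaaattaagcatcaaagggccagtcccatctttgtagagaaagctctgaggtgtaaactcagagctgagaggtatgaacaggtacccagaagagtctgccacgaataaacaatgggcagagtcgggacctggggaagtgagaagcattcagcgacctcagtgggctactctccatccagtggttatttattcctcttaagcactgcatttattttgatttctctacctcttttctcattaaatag
Abca5: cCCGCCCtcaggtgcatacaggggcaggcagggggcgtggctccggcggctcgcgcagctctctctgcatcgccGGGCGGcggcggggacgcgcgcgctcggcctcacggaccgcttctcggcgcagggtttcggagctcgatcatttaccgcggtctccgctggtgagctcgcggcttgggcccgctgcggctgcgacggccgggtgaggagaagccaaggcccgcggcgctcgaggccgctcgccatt

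No searched motif was found in the windows of Abca4 and Abca8, with a G and C content of 50.8% and 43.6%. The window of Abca5 held 2 matches to GGGCGG and 74.4% G and C, where the median of all 33469 windows in the table was 51.2%. Windows were at hand for 28 of the 35 genes. Abca9 had several, most of them overlapping, so that the windows came to 31 in all. Of the 31 windows, 20 held GGGCGG (64.5%, against 30.5% of all windows) and 3 held TATAAA (12.9% of all). Another 2 matched CACGTG (5.59%), 6 AGGTCA (14.1%) and 1, that of Abcc2, a CArG box (1.5%), where a window can hold several motifs. The TATAAA and the AGGTCA windows each included an overlapping window of Abca9. GGGCGG was present in 9 of 12 genes 2-fold or more higher in mcPCs, in 1 of 2 higher in VSMCs and in 10 of 14 within 2-fold. Matches to letters of this kind are descriptions of the windows and were not tested against binding.

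Abcg1 and Abcg4 are half-transporters that pass cholesterol to lipoproteins, Abcg4 being known mainly from brain. Their ratios had opposite signs. Abcg1 was at 7.53 TPM in VSMCs against 8.68 TPM in mcPCs, 870 and 2157 reads per sample, a log2 ratio of 1.93 (1.866 to 1.998). Abcg4 (ENSRNOG00000008862) was at 18.2 TPM and 1292 reads in VSMCs and at 0.288 TPM and 37.7 reads in mcPCs, 17.7-fold fewer normalized counts (log2 ratio -4.14, counting interval -4.43 to -3.87). Abcg4 was thus the more abundant of the pair in VSMCs, and Abcg1 in mcPCs. Added together, the pair held 4.80% of the family's TPM in VSMCs against 5.25% in mcPCs. The window before the start of Abcg4, chr8:53523572-53523821 (-) of GRCr8, is shown because this gene had the second most negative ratio. It held AGGTCA once, on the opposite strand, and 58.8% G and C.
Abcg4: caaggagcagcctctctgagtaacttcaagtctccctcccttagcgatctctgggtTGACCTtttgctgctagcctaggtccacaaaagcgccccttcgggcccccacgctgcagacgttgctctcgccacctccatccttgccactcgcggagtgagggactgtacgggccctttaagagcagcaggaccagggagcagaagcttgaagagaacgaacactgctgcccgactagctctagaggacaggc

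The genes around cholesterol efflux also moved in both directions. Of 20 listed, 10 were 2-fold or more higher in mcPCs and 4 in VSMCs, with a median log2 ratio of 0.995. Apoe, the main lipid carrier of brain, had a ratio of 4.81 (231 and 1835 TPM), and Nr1h3, which encodes the sterol sensor LXR alpha, one of 2.65. Nr1h2, encoding LXR beta, was at -0.01. Among the genes higher in VSMCs were the lipoprotein receptor Vldlr, at -2.74, Mylip and Rxra. Microglia and leukocytes also use Abca1, Abcg1, Abca7, Apoe and Nr1h3. Of 20 markers of those cells 10 were listed, and all 10 were 2-fold or more higher in mcPCs, with Ptprc at 0.0659 and 15.1 TPM and Laptm5 at 0.0533 and 38.2 TPM in VSMCs against mcPCs. The list's median VSMC level was 0.165 TPM, and 67.4% of all listed genes under 0.8 TPM in VSMCs were called in that direction. The summed level of these markers was 2.84 TPM in VSMCs against 106 TPM in mcPCs. Their part in the ratios of the sterol transporters was not tested.

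Among 9 genes of drug and organic anion efflux, 6 were 2-fold or more higher in mcPCs and 3 lay within 2-fold, with a median log2 ratio of 1.81. Abcb1a (ENSRNOG00000008012), one of the rodent P-glycoproteins, stood at 0.390 TPM and 69.3 reads per sample in VSMCs and at 2.45 TPM and 779 reads in mcPCs, a log2 ratio of 4.40 (4.197 to 4.613). Abcg2, the breast cancer resistance protein, was at 1.43 and 1.98 TPM with a ratio of 2.20 (2.02 to 2.37). In mcPCs 40.8% and 36.4% of listed genes were lower than these genes. Both are prominent in brain endothelium. Of 24 endothelial markers 22 were listed, and 17 of these were 2-fold or more higher in mcPCs with a median ratio of 4.05. Their median VSMC level was 0.595 TPM, and 67.4% of all listed genes under 0.8 TPM in VSMCs were called in that direction. Cldn5, the claudin of brain tight junctions, was at 0.643 and 15.4 TPM, and Slco1a4, an organic anion transporter of the barrier, at 0.210 and 2.73 TPM. Others on the list had negative ratios within 2-fold, Flt1 at -0.78, Slc2a1 at -0.50 and Ocln at -0.33. The summed level of the list, which Esam dominates, was 700 TPM in VSMCs against 355 TPM in mcPCs. The erythrocyte genes lower the TPM of mcPCs in this sum. How far endothelial RNA enters the values of Abcb1a and Abcg2 was not tested.

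The ABCC genes, or multidrug resistance-associated proteins, split by level. Abcc5, an exporter of cyclic nucleotides and organic anions, and Abcc1, which carries leukotriene C4 and glutathione conjugates, were the abundant ones. Abcc5 was at 43.0 TPM in VSMCs against 12.3 TPM in mcPCs, rank 3 among the ABC genes of both, with a ratio of 0.04 (-0.00 to 0.07). Abcc1 was at 19.6 and 3.83 TPM, with a ratio of -0.56 (-0.62 to -0.51). Abcc6, whose product raises extracellular pyrophosphate and so restrains calcification of vessel walls, was at 1.92 and 4.59 TPM, 425 and 1881 reads per sample, with a ratio of 3.05 (2.96 to 3.14). Abcc4, an exporter of cyclic nucleotides and prostaglandins, was low in both at 0.218 and 0.479 TPM, with a ratio of 2.95 (2.65 to 3.26).

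The remaining ABCC genes were low. Abcc3, which exports glucuronides and bile salts, had 224 and 245 reads per sample and a ratio of 1.05 (0.90 to 1.205), but was lower in mcPCs in TPM (1.24 and 0.723). Abcc2, the canalicular exporter of conjugated bilirubin, had 9.76 and 16.3 reads per sample, the fewest of the family. Its ratio of 1.81 (1.11 to 2.52) came with TPM values of 0.0427 and 0.0420, so the direction was not kept on that scale. Abcc10, which carries lipophilic drugs, was at 2.63 and 0.874 TPM with a ratio of 0.21.

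Other carriers of the blood-brain barrier and genes of the xenobiotic response, both regulators and enzymes, were set beside the efflux genes. Of 16 listed solute carriers of the barrier, 12 were 2-fold or more higher in mcPCs and none in VSMCs, with a median of 2.99. Slco1c1, Mfsd2a, Slco2b1, Slc22a6, Slc38a5, Slc22a4, Slco1a4 and Slco4a1, all among the 12, were under 0.8 TPM in VSMCs. At that level 67.4% of all listed genes were called in that direction. Slco1a4, Slco1c1, Mfsd2a and Slc2a1 were also on the endothelial list. Slc22a8, an organic anion transporter, had the highest ratio of them at 7.61, with 3.62 TPM in VSMCs against 198 TPM in mcPCs. Slc2a1, the glucose transporter, was at -0.50. Of 12 listed genes of the xenobiotic response, 2 were 2-fold or more higher in mcPCs and 3 in VSMCs, with a median of -0.31. The 2 were the enzyme genes Cyp1b1 and Nqo1, and the 3 were Tiparp, Ppara and Rxra. The highest ratio of a regulator was that of Ahr at 0.91, below 2-fold.

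Abcg3l1 and Abcg3l3, rodent relatives of Abcg2, had ratios of 1.16 (1.07 to 1.26) and 1.19 (1.04 to 1.33), just over 2-fold, but were lower in mcPCs in TPM, at 7.68 and 4.92 TPM for Abcg3l1 and 3.23 and 2.13 TPM for Abcg3l3. Their reads were not whole numbers in either cell type, so part of them was shared with other genes, and whether with each other was not tested. Abcb9, which moves peptides into lysosomes, was at 0.801 and 0.159 TPM with a ratio of -0.52 (-0.77 to -0.27). Its relatives Tap1 and Tap2, which do not carry an Abc symbol and supply peptides to MHC class I, had ratios of 1.64 and 1.57. Of the 13 listed genes of peptide loading, 9 were 2-fold or more higher in mcPCs, with a median of 1.57. Cftr, the chloride channel of the family, had 27.8 reads per sample in VSMCs and 8.35 in mcPCs, with a ratio of -0.70.

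The 4 mitochondrial transporters lay within 2-fold. Abcb6, linked to porphyrin transport, had the highest ratio of them at 0.82 (0.77 to 0.87), with 21.3 TPM in VSMCs against 10.4 TPM in mcPCs. Abcb10, which takes part in haem synthesis, was at 12.6 and 4.14 TPM with a ratio of 0.21, and Abcb8, linked to iron export from mitochondria, at 19.9 and 6.66 TPM with a ratio of 0.23. Of 23 listed genes of haem and iron-sulfur cluster metabolism, 11 were 2-fold or more higher in mcPCs and 1, Isca1, in VSMCs, with a median of 0.81. The highest were Alas2 at 8.25, Slc25a39 at 4.45 and Fech at 3.87. Alas2, Fech and Slc25a37 were also on the erythrocyte list. Its median was 7.98 and its summed level was 8800 TPM in VSMCs against 667506 TPM in mcPCs. Of the 35 genes of that list, 26 were listed. The part of erythrocyte RNA in the ratios of Abcb6 and Abcb10 was not tested.

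The ABCD genes lay within 2-fold as well. Abcd3, the peroxisomal carrier of branched-chain fatty acids and bile acid precursors, was at 27.7 and 5.77 TPM with a ratio of -0.46 (-0.51 to -0.41). Abcd2, a peroxisomal carrier of fatty acids, was at 3.41 and 1.15 TPM with a ratio of 0.26. Abcd4, a lysosomal transporter of cobalamin, had 6.07 and 2.92 TPM and a ratio of 0.75 (0.64 to 0.85). Of 20 listed genes of peroxisome assembly and beta-oxidation, 3 were 2-fold or more higher in mcPCs (Cat, Pex26 and Pex5) and none in VSMCs, with a median of 0.05.

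The soluble members were the most abundant. Abcf2 was at 82.0 TPM in VSMCs against 19.1 TPM in mcPCs, and Abcf1, which promotes translation initiation, at 81.7 and 16.4 TPM. They had ranks 1 and 2 in both cell types, ahead of Abcc5, and Abcf3, a relative of the yeast activator of the kinase Gcn2, had rank 4 with 42.5 and 10.8 TPM. Abce1, which splits ribosomes after termination, was at 35.3 and 8.34 TPM. The 4 ratios were all negative and within 2-fold, at -0.18 for Abcf3, -0.27 for Abce1, -0.29 for Abcf2 and -0.56 for Abcf1. Of 14 listed genes of ribosome recycling and translation control, none was 2-fold higher in mcPCs and 1, Etf1, was higher in VSMCs, at -1.06, with a median of -0.21.

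Summed over the family, the level was 535 TPM in VSMCs against 171 TPM in mcPCs, and 541 and 518 TPM when the erythrocyte genes were left out of the total. Normalized counts summed to 48620 in VSMCs and 61107 in mcPCs, 1.26-fold more. The make-up of that total differed. The soluble members held 45.1% of the family's TPM in VSMCs against 32.02% in mcPCs, the ABCA genes 14.8% and 22.1%, and the drug and anion exporters 13.2% and 15.95%. Mitochondrial transporters held 11.8% and 13.5%, and ABCD genes 8.13% and 7.01%. The 4 most abundant genes, the same in both, held 46.5% in VSMCs and 34.3% in mcPCs.

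**Figure D3:**
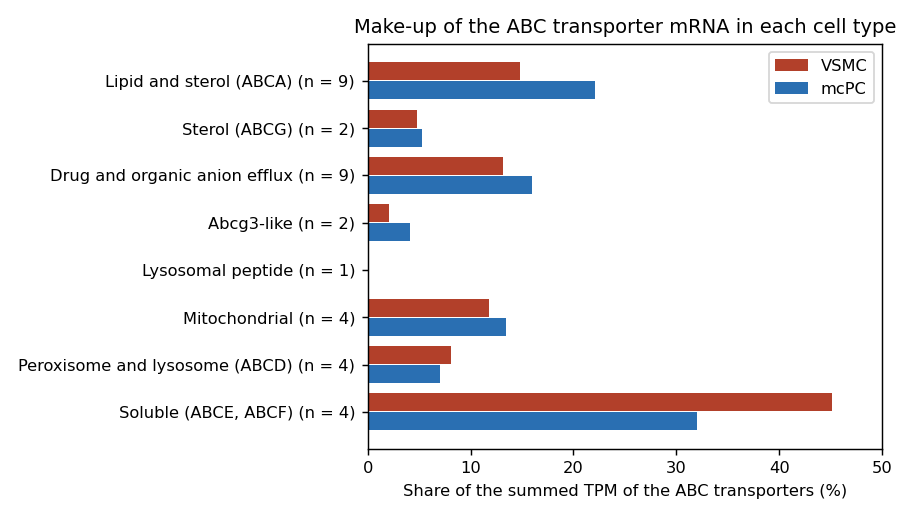
Share of the family's summed TPM held by each role in VSMCs (red) and mcPCs (blue), in percent, with the number of genes of each role. The soluble members fall from 45.1% to 32.02% and the ABCA genes go from 14.8% to 22.1%.

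The effective length of a gene, averaged over its transcripts by their abundance, changes when other transcripts of it are used. It differed between the cell types by 10% or more for 4 of the 35 genes, against 4.27% of all listed genes. Abcc5 was 32.8% longer in mcPCs (2969 and 3943 bases), Abcg1 15.3% and Abcf1 11.7%, while Abcb6 was 12.9% shorter. TPM and normalized counts both take these lengths into account. Which transcripts were used was not analysed here.

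Some of the comparisons depended on the scale. On the TPM scale with a pseudocount of 0.1, 26 of the 35 genes were lower in mcPCs, as were 86.3% of all listed genes. Of the 15 genes higher in mcPCs by normalized counts, Abca1, Abca7, Abcc2, Abcc3, Abcg3l1 and Abcg3l3 changed direction there, and the other 9 did not. With the erythrocyte genes left out of the TPM total, all 17 genes called by normalized counts kept their sign, and 12 stayed beyond 2-fold. When TPM ratios were taken relative to their median over all listed genes, all 17 genes that differed by 2-fold or more were called the same way.

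**Figure D4:**
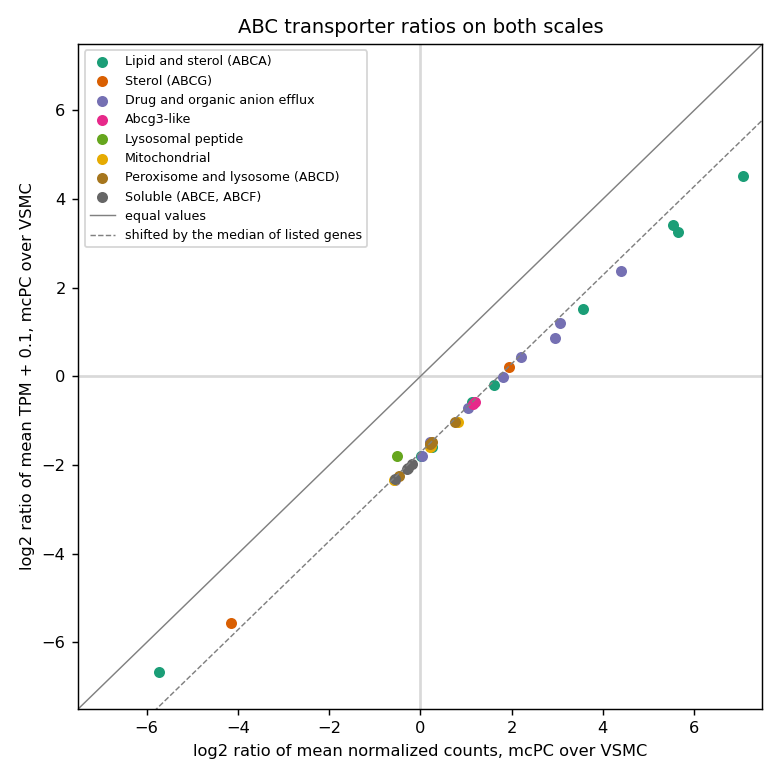
Log2 ratio of mean TPM with a pseudocount of 0.1 (y axis) against that of mean normalized counts (x axis), mcPCs over VSMCs, for the 35 ABC transporters, coloured by role. The solid line marks equal values and the dashed line lies -1.72 lower, the median TPM ratio of all listed genes. Most points follow the dashed line.

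**Figure D5:**
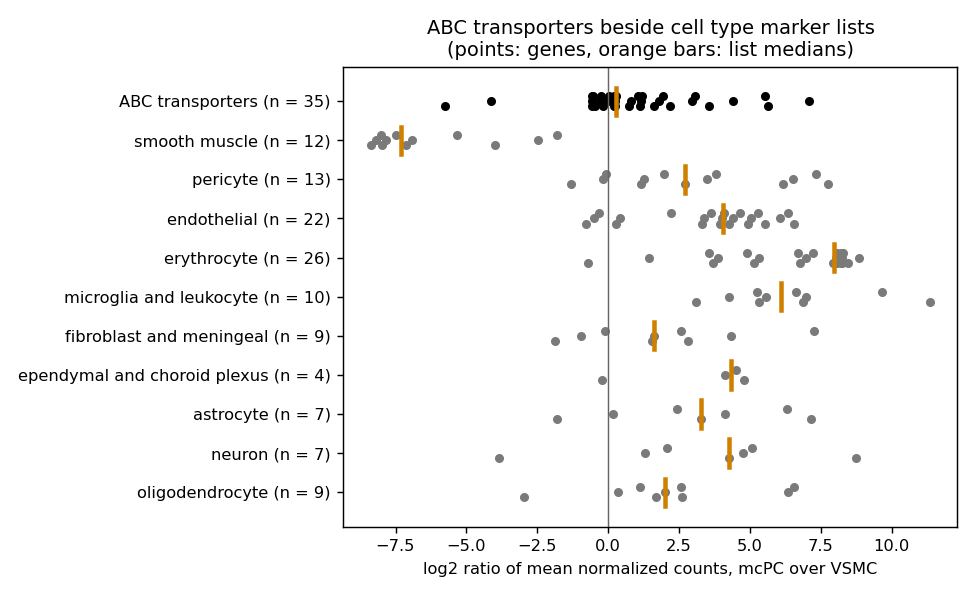
Log2 ratio of mean normalized counts, mcPCs over VSMCs, of the 35 ABC transporters (black) and of the listed genes of 10 cell type marker lists (grey), with orange bars at the medians. The family's median of 0.26 lies near 0, the smooth muscle list lies at -7.31, and the medians of all other lists are positive, up to 7.98 for erythrocytes.

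The other marker lists moved the same way as the pericyte list, whose median ratio was 2.72. At least 2-fold higher in mcPCs were 5 of 7 listed astrocyte markers (median 3.27), 6 of 7 neuron markers (4.26), 7 of 9 oligodendrocyte markers (2.01) and 3 of 4 ependymal and choroid plexus markers (4.32). Each of the first 3 lists had 1 gene at least 2-fold higher in VSMCs. The median VSMC levels of the 4 lists were 0.306, 0.392, 0.575 and 0.531 TPM in that order. At under 0.8 TPM in VSMCs, 67.4% of all listed genes were 2-fold or more higher in mcPCs. Summed levels in VSMCs and mcPCs were 27.6 and 23.6 TPM for astrocytes, 13.4 and 27.8 TPM for neurons, 14.6 and 16.5 TPM for oligodendrocytes and 5.36 and 33.7 TPM for the ependymal list. Their part in the ratios of the ABC transporters was not tested.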

How the data were processed

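Strand-specific RNA-Seq of 3 VSMC and 3 mcPC samples, sequenced in 4 runs each, had been quantified by the authors with Salmon 0.8.0 on Ensembl transcripts of Rnor_6.0, summed per gene and normalized with DESeq2. Genes with a read in every sample had been kept. The deposited table holds the authors' means per cell type of TPM, of estimated counts, of normalized counts (a signal, the counts over DESeq2's factors) and of effective lengths. Estimated counts are means per run, as 71.4% and 72.5% of genes in VSMCs and mcPCs are multiples of 1 read over 12 runs (tolerance 0.02 reads). They were multiplied by 4 to give reads per sample.

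The table also has columns of the authors' comparison (log2 fold change, its standard error, p-values) and a mean over all samples, which were not used. As no value per sample was at hand, the planned edgeR test was not run, and differences are log2 ratios of the authors' mean normalized counts without a pseudocount. Exact (Clopper-Pearson) 95% intervals of the summed reads cover counting error only, and reads without molecular identifiers are not independent molecules. A gene counted as different at 2-fold.

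Members and lists were chosen with earlier results of these data known. Genes named are those at 5 TPM or more in either cell type, or at least 2-fold different with 10 reads or more per sample in the higher, and others of the family with their low level. In lists, a symbol with several rows was taken from the row with most reads. Gene order and upstream windows are RefSeq's for GRCr8. All 35 genes matched by gene ID, 28 with a window. Coordinates on Rnor_6.0 were not used here. Single values of a few genes, counted in the totals, are not reported here. The log2 ratio and its counting interval were tested on simulated counts that held counting error only, without spread between samples. The other steps were not tested in this way. Tools were scipy 1.17.1, pandas 2.3.3, numpy 2.4.6, matplotlib 3.10.9 and Python 3.11.15.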

Additional observations from a re-analysis of the deposited data

How the results depend on the processing

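Most of what moved was the scale. With ratios of mean TPM (pseudocount 0.1) 6 genes passed 2-fold towards mcPCs and 20 towards VSMCs, with a median of -1.49 (all listed genes -1.72). With a pseudocount of 1 these values were 5, 16 and -0.95 (all listed genes -1.43). Log2 ratios that changed sign, with pseudocounts of 0.1 and 1, were those of Abca1 (-0.59 and -0.32), Abca7 (-0.19 and -0.16), Abcc2 (-0.0077 and -0.0010), Abcc3 (-0.71 and -0.38), Abcg3l1 (-0.63 and -0.55) and Abcg3l3 (-0.58 and -0.44). Counts scaled to the same total gave 11 and 6 genes and a median of -0.17, where the median of all listed genes was -0.55. Without erythrocyte genes in the total the median was 0.57 (all listed genes 0.19), with 15 and 2 genes. TPM without erythrocyte genes, chosen after seeing the data, gave 10 and 2 genes and a median of 0.017 (all listed genes -0.20). With at least 0.8 TPM in VSMCs, the level the paper required, 9 genes were higher in mcPCs. Of the 17 genes called, 8 and 7 were called the same way by TPM with pseudocounts of 0.1 and 1, 13 by counts of equal total, 12 by TPM without erythrocyte genes and 17 by the other scalings. All 17 kept their sign by TPM without erythrocyte genes, and 11 by TPM with either pseudocount. A filter on 10 reads left 14 and 2.

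No paired analysis was possible because the table holds means per cell type, and for the same reason no replicate was left out in turn and neither edgeR nor DESeq2 was run. Depth limits Abcc2, with 9.76 reads per VSMC sample, Abcc4, Abca8 and Abca4, with 35.7 to 39.3 there, and Abcg4 and Abca5, with 37.7 and 44.3 in mcPCs.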
